A study of Mus musculus with 2 samples.

Results

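Alpha2 tanycytes were the largest cell class in this single-cell ATAC-seq study of the mouse hypothalamus, with 9208 of 22285 cells. Their members are the cells that the annotation deposited by the authors calls alpha2 tanycytes, 4306 of 8948 cells in the control library and 4902 of 13337 cells in the Nfia/b/x-deficient library. Both libraries came from GFP-positive cells sorted from the mediobasal hypothalamus at postnatal day 8. Control mice carried Rax-CreER and CAG-lsl-Sun1-GFP, and deficient mice carried these together with Nfialox/lox, Nfiblox/lox and Nfixlox/lox. Rax-CreER drives recombination in cells that express Rax, so both genotypes carry the Cre driver and the nuclear GFP reporter, and GFP marks tanycytes and what they give rise to. The sources used here do not state how Cre was induced or how many animals went into a library. Each genotype is 1 library without a replicate, so genotypes are compared by their values alone, with no p-value.

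Tanycytes are elongated radial glia-like cells whose bodies line the third ventricle and whose processes reach into the hypothalamus. Alpha tanycytes lie in the ventricle wall, with alpha1 cells dorsal to alpha2 cells, beta1 cells lie further down along the arcuate nucleus, and beta2 cells form the floor over the median eminence. Rax encodes a homeobox factor of tanycytes, Vcan the matrix proteoglycan versican and Crym a thyroid hormone-binding crystallin. These 3 genes are used as markers of the alpha2 class, although Rax is a gene of tanycytes and not of this class alone. NFIA, NFIB and NFIX are nuclear factor I proteins, transcription factors known for driving progenitors of the nervous system towards glial fates. ATAC-seq reports which stretches of chromatin are open to the Tn5 transposase, and open stretches away from gene starts often act as enhancers.

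The matrix lists which of 107377 regions was open in which cell, without fragment counts. A detection below is 1 region found open in 1 cell. Regions carry a number only and are not paired with genes or positions, so the class could not be checked against Rax, Vcan and Crym, the deleted genes could not be looked at, and no region sequence is printed. Regions are therefore named by number, at most 2 in each direction per comparison. Control alpha2 cells supplied 28371961 detections and deficient ones 26067852. A control alpha2 cell had 1025 to 24085 detections (median 4999) and a deficient one 1010 to 14943 (median 4585). The control alpha2 class held 334 cells (7.76%) with more than 15000 detections, while no deficient cell of any type exceeded 14943. In the other control types at most 3.01% of cells passed 15000 detections. The sources used here do not state an upper limit for either library. The libraries shared 204 barcodes over all types, and 33 of these were alpha2 cells in both. Intervals are exact 95% intervals (Clopper-Pearson for shares of cells, Poisson for sums, conditional binomial for ratios). They cover counting error only and leave out variation between animals.

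The class was checked against the region profiles instead. Each cell was assigned to the most likely of the 9 type profiles, built from other cells of its own library. Among control alpha2 cells 79.8% (78.6 to 81.0%) were assigned to alpha2, 11.1% to beta1, 5.13% to alpha1 and 3.46% to beta2 tanycytes. Only 3 of 4306 were assigned to neurons and 0 to ependymal cells, which allows a share of up to 0.0856%. The 0 says little, because the control ependymal profile came from 133 cells. Of these, 27.8% were assigned to their own type and 52.6% to alpha2. Control alpha2 cells assigned elsewhere thus went mostly to other tanycyte subtypes. Their nearness to ependymal cells was not settled by assignment.

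Many deficient alpha2 cells were nearest to the proliferating tanycytes. Of 4902 deficient alpha2 cells 47.8% (46.4 to 49.2%) were assigned to alpha2 and 33.7% (32.4 to 35.1%) to proliferating tanycytes. Beta1 tanycytes took 7.85%, alpha1 4.63%, beta2 3.79% and neurons 1.10%. Without the proliferating profile 79.9% (78.8 to 81.0%) were assigned to alpha2, close to the control value, and 2.63% (2.20 to 3.12%) to neurons. The proliferating profile was built from 1033 cells in the deficient but only 63 cells in the control library, where not one of its own cells was assigned to it and 87.3% of them were assigned to alpha2. That 0 of 4306 control alpha2 cells went to this class therefore says nothing about them. In the deficient library 13.6% of alpha1, 4.21% of beta1 and 0.299% of beta2 tanycytes, 12.1% of astrocytes and 11.7% of neurons were assigned to the proliferating class, so the alpha2 share of 33.7% was the highest among the other types. Deficient alpha2 cells nearest to the proliferating profile had a median of 4387 detections, and those nearest to their own had 4922.

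The difference between deficient alpha2 and deficient proliferating tanycytes was also followed with region sets. The regions highest and lowest in deficient alpha2 over deficient proliferating tanycytes, 500 on each side, were chosen in even-numbered cells and measured in odd-numbered cells. With deficient alpha2 cells set at 0% and deficient proliferating cells at 100%, control alpha2 cells lay at -90.7%, on the side away from the proliferating class. Control proliferating cells lay at -59.6%. On these regions the control cells of the proliferating class were thus further from the deficient proliferating class than deficient alpha2 cells were.

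Most regions were open in few alpha2 cells. The median region was found in 2.79% of control and 2.37% of deficient alpha2 cells. In the control library 19338 regions were found in at least 10% of alpha2 cells and 107 in at least 50%, and in the deficient library these were 15192 and 26 regions. These shares move with depth, which was lower in the deficient library. The shape of the profile was alike in both, since the most open 10% of regions held 43.5% of alpha2 detections in either library. The most open was region 43752, found in 86.9% (85.8 to 87.9%) of control and 83.4% (82.4 to 84.5%) of deficient alpha2 cells. Region 93705 followed with 66.1% and 60.7%. Both were open in at least 45.3% of the cells of every type in either library, so the most open alpha2 regions were not alpha2 regions only.

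Few regions set alpha2 cells apart from the other tanycyte subtypes. Of 50302 regions with at least 200 detections, 286 (0.569%) were 2-fold or more higher and 553 (1.1%) 2-fold or more lower in control alpha2 cells than in the summed control alpha1, beta1 and beta2 cells. This is a description, since the classes were made from these cells. Region 46236 was the highest and was found in 6.46% of alpha2 cells, 1.09% of beta1, 0.846% of alpha1 and 0.774% of beta2 cells of the control library. It was open in more astrocytes (14.8%). Region 93477 was found in 5.27% of alpha2 cells, at most 1.09% of the other subtypes and 7.08% of astrocytes. At the other end, region 25014 was found in 2.37% of alpha2 and 11.9% of beta2 cells, and region 97468 in 2.46% of alpha2 and 17.8% of beta2 cells. In these 4 regions, those that led in alpha2 cells were also open in astrocytes, and the lowest ones were open in beta2 cells.

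The genotypes differed less at these regions, which were chosen for a large difference between types. Deficient alpha2 cells had region 46236 in 4.04% of cells (log2 ratio -0.33 to control per detection), 93477 in 3.08% (-0.41), 25014 in 1.31% (-0.41) and 97468 in 0.673% (-1.06). Region 97468 alone passed 2-fold.

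A larger set was also open in astrocytes. Up to 500 regions with the highest ratio of alpha2 over the highest of alpha1, beta1 and beta2 tanycytes were chosen in even-numbered control cells and measured in odd-numbered cells. These 500 leading regions took 3.56 of every 1000 detections in control alpha2 cells, 2.54 in alpha1, 2.08 in beta1 and 1.37 in beta2 cells. They took more in astrocytes (4.40), proliferating tanycytes (4.12) and oligodendrocyte precursor cells (OPCs, 3.86), and 3.41 in neurons and 3.17 in ependymal cells. Over all 7 other types with at least 100 control cells, 0 of 88882 regions led in alpha2 cells by 2-fold and 53 led by a log2 ratio of 0.5 or more. At this depth no region was thus 2-fold higher in alpha2 cells than in each of these types.

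At an equal depth of 900000 detections, control alpha2 cells differed by 2-fold or more from beta1 cells at 1.26% of regions, from ependymal cells at 1.36%, from alpha1 cells at 1.94% and from astrocytes at 2.64%. Beta2 cells (3.96%), OPCs (4.79%) and neurons (5.12%) differed at more regions. Even- against odd-numbered control alpha2 cells gave 0.603%, the level of counting error. In the deficient library alpha2 cells differed from beta1 cells at 1.04% of regions, from proliferating tanycytes at 1.15%, from alpha1 cells at 1.54% and from ependymal cells at 2.27%. The values for astrocytes (2.43%), neurons (2.88%), beta2 cells (3.57%) and OPCs (4.86%) were higher, and even against odd cells gave 0.557%. Deficient against control alpha2 cells gave 1.97%, about as much as control alpha2 against control alpha1 cells (1.94%). Neurons were thus nearer to alpha2 cells in the deficient than in the control library by this count, and ependymal cells further. These differences were not tested.

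The genotypes were then compared at each region, as detections per 1000000 of the alpha2 cells of a library. Of the 105674 regions detected 50 times or more, 3134 (2.97%) were 2-fold or more lower and 1212 (1.15%) 2-fold or more higher in deficient alpha2 cells, of which 55 and 3 passed 4-fold. Higher regions were 27.9% of those past 2-fold. They were 38.1% in cells matched on depth, 37.5% in cells thinned to 2000 detections, 35.0% with a pseudocount of 0.5 in place of 1, 18.9% after median-of-ratios scaling and 8.08% with a pseudocount of 5. Lower regions were the majority under each of these choices. The median log2 ratio over regions was 0.064, with 5th and 95th percentiles of -0.82 and 0.70.

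The lowest ratio was that of region 5392. It was found in 661 control alpha2 cells (15.4%, 14.3 to 16.5%) and 69 deficient ones (1.41%, 1.10 to 1.78%), or 23.3 and 2.65 per 1000000 detections. The deficient level was 0.114 of the control level (0.0873 to 0.146), and the log2 ratio was -2.81 in even-numbered and -2.66 in odd-numbered cells. Per 1000000 detections, control proliferating (21.8), beta1 (21.7) and alpha1 tanycytes (21.2) had nearly the alpha2 level, and beta2 tanycytes had 8.13. Region 8307 came next and was more widely open, in 30.1% (28.8 to 31.5%) of control and 3.55% (3.05 to 4.11%) of deficient alpha2 cells, a ratio of 0.146 (0.124 to 0.171). Its control level was 45.7 per 1000000 detections in alpha2, 45.1 in alpha1, 38.7 in beta1 and 14.0 in beta2 tanycytes. Both regions were thus shared by the alpha and beta1 tanycytes of the control library and lower in beta2 tanycytes. They were not limited to tanycytes, since region 8307 was at 27.7 in control ependymal cells and 24.5 in control neurons. Both regions were lower in every deficient type than in the same control type. Ratios for region 8307 ran from 0.108 (OPCs) to 0.428 (astrocytes). Those for region 5392 ran from 0.0453 (proliferating) to 0.378 (ependymal, with a wide interval of 0.0834 to 1.41).

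The highest ratios had a different starting point, regions almost closed in control cells. Region 43464 was found in 28 control alpha2 cells (0.650%, 0.433 to 0.938%) and 672 deficient ones (13.7%, 12.8 to 14.7%), a ratio of 26.1 (17.9 to 39.6). Region 43694 was found in 107 (2.48%) and 652 (13.3%) alpha2 cells, a ratio of 6.63 (5.40 to 8.21). Region 43464 was thus almost closed in control alpha2 cells, while region 43694 was near the median region there (2.79%). Both were open in at most 4.51% of the cells of each control type. Both were higher in every deficient type, where region 43464 was found in 6.79% (ependymal) to 13.9% (astrocytes) of the cells of the other types and region 43694 in 4.74% of OPCs up to 130 of 1003 beta2 cells.

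Lower regions made up the largest share of regions of middle accessibility. Regions were grouped by the share of even-numbered control alpha2 cells in which they were open, and the genotypes compared in odd-numbered cells, where 3.78% of 90679 regions were 2-fold or more lower and 1.78% higher. Of 31970 regions open in 2 to 5% of cells 4.19% were lower and 1.41% higher, and they held 1339 of the 3427 lower regions. Of the regions open in 5 to 10% of cells 6.98% were lower and 0.337% higher, and of those open in 10 to 20% of cells 6.12% were lower and 2 of 10868 higher. Of 8355 regions open in 20 to 50% of cells 1.74% were lower and 0 higher. No region of the 101 open in at least 50% of cells passed 2-fold either way. Presence saturates at 1 per cell, which understates differences there. Regions open in 1 to 2% of cells (1.05% lower and 3.42% higher of 20882) and in under 1% (11.6% higher) are near the minimum of 50 detections, which is summed over both libraries. Regions lower in the deficient library could fail this minimum and regions higher in it could pass, so nothing is read from these shares.

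**Figure D1:**
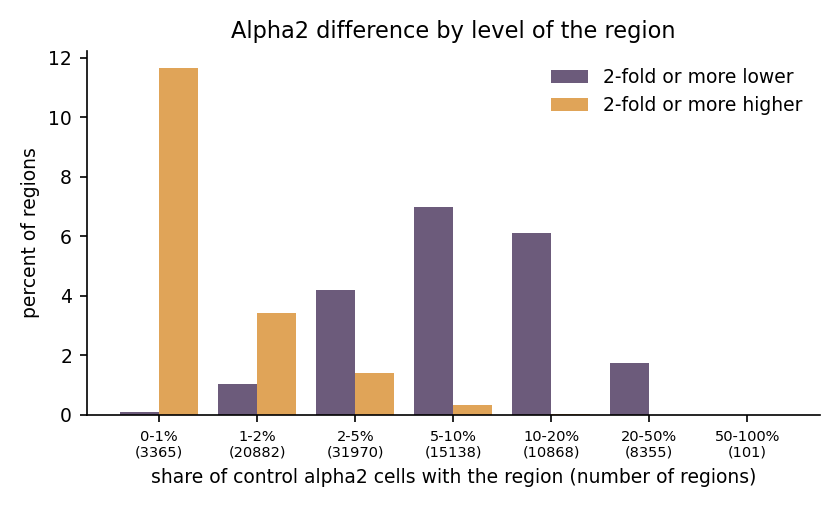
Percent of regions that were 2-fold or more lower (purple) or higher (orange) in deficient than in control odd-numbered alpha2 cells, by the share of even-numbered control alpha2 cells in which the region was open, with the number of regions in parentheses. Lower regions peak at 6.98% among regions open in 5 to 10% of cells. In the groups below 2% the minimum of 50 detections favours higher regions, and the pseudocount holds back lower regions where few cells have the region.

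Higher regions were more frequent at regions that set alpha2 cells apart in either direction than at regions near the mean of the types. Lower regions followed no such order. Among 4837 regions whose log2 ratio of alpha2 over the mean of 7 other control types was 0.5 to 1, 6.97% were lower and 2.96% higher. Among 133 regions above 1, 2.26% were lower and 3.76% higher. On the other side, 3.56% were lower and 2.89% higher among 5569 regions of -1 to -0.5, and 3.1% and 5.11% among 548 regions of -2 to -1. Between these, 3.02% were lower and 1.59% higher among 38622 regions of -0.5 to 0, and 4.16% and 1.61% among 40965 regions of 0 to 0.5. The minimum of detections was the same as in the grouping by accessibility, where it favours higher regions among those open in few cells. The groups by type ratio were not matched on accessibility. Whether the order of higher regions depends on accessibility was not tested, so this order is a description only.

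To follow the differences in other cells, the 500 lowest and 500 highest regions were chosen in even-numbered alpha2 cells among 35472 regions with at least 200 detections, and are called lost and gained regions below. The last lost region had a log2 ratio of -1.33 in the cells of the choice and the last gained one 0.83, with the next regions outside at -1.32 and 0.83. In odd-numbered cells, which come from the same 2 libraries but did not enter the choice, 491 of 500 lost regions were 2-fold or more lower, and 193 of 500 gained regions 2-fold or more higher. Over all regions open to the choice, 3.86% were lower and 0.668% higher. The median lost region was open in 11.3% of control and 2.82% of deficient alpha2 cells, and the median gained region in 4.46% and 7.34%. Their median log2 ratios were -1.53 and 0.94, against 0.020 over all 35472 regions. The size of both differences depended on the regions open to the choice. With a minimum 4 times higher, 8635 regions were open to it and the summed log2 ratio was -0.54 for lost and 0.25 for gained regions, in place of -1.70 and 1.04. With regions chosen in thinned cells they were -0.85 and 0.30, and in cells assigned to alpha2 they were -1.44 and 0.63.

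Lost regions were open in every cell type of the control library, and most open in alpha tanycytes. Lost regions took 10.8 of every 1000 detections in alpha1, 9.71 in alpha2, 9.63 (9.18 to 10.1) in proliferating, 9.31 in beta1 and 7.18 in beta2 tanycytes of the control library. Astrocytes had 8.39, ependymal cells 7.78, OPCs 7.61 and neurons 6.55. In the deficient library alpha2 cells had 2.98 (2.95 to 3.01), below the lowest level of any control type. Among deficient tanycytes, proliferating cells had 1.79, beta2 2.71, beta1 3.86 and alpha1 4.51. Deficient neurons had 1.88, OPCs 3.84, ependymal cells 4.79 and astrocytes 5.96, each below the control level of its type.

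Gained regions were at 3.69 of every 1000 detections in control alpha2 cells, within the 2.54 (beta2) to 4.21 (proliferating) seen in the control types, and at 7.56 (7.51 to 7.60) in deficient alpha2 cells. No control type reached that level. Deficient proliferating tanycytes (9.35) and neurons (8.08) were above deficient alpha2 cells, and deficient beta2 cells (4.43), ependymal cells (4.65) and astrocytes (5.01) were the lowest. Summed as a set, the gained regions therefore did not mark a cell type of the control library. The sum does not speak for single regions. Of the 500, 23 were also among the proliferating regions chosen in the deficient library. Another 14 were among the regions specific to alpha1 tanycytes, 11 among those of OPCs, 9 among those of astrocytes and 2 among those of beta1 tanycytes. The overlap was 0 for beta2 tanycytes, neurons and ependymal cells. Each type set holds up to 500 of the 107377 regions. The share for all regions open to the choice was not computed, so these overlaps are not read as enrichment. The choice of regions in alpha2 cells favours a large difference in alpha2 cells, and the types share both libraries, so the differences of the other types are not independent of it.

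**Figure D2:**
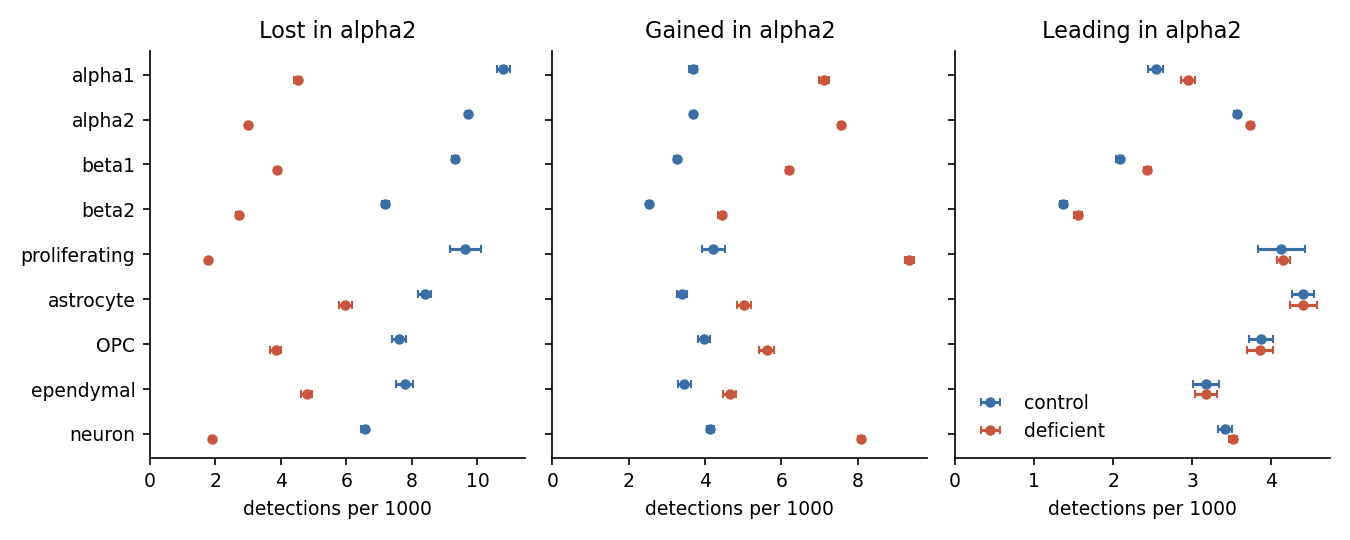
Detections per 1000 in lost, gained and leading alpha2 regions (500 each) in odd-numbered cells of each type, control in blue and deficient in red, with exact Poisson 95% intervals for counting error. Lost regions are near 9.71 in control and 2.98 in deficient alpha2 cells, gained regions at 3.69 and 7.56, and leading regions at 3.56 and 3.74.

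Most single alpha2 cells of the deficient library showed the difference. Among odd-numbered alpha2 cells with at least 2000 detections, lost regions took a median of 9.69 of every 1000 detections in 2020 control cells (5th to 95th percentile 6.60 to 13.4) and 2.40 in 2285 deficient cells (0.806 to 7.77). Gained regions took a median of 3.61 (1.98 to 5.33) in control and 7.51 (3.81 to 11.2) in deficient cells. When 2000 detections were drawn from each cell, the 133 control and 166 deficient cells with fewer were not used. The median control cell then had 19 lost and 7 gained regions, and the median deficient cell 5 and 15. The medians hardly moved with depth: from cells of 1000 to 2000 detections up to cells of 8000 to 15000, lost regions had medians between 9.48 and 10.2 per 1000 in control and between 2.29 and 2.68 in deficient cells.

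**Figure D3:**
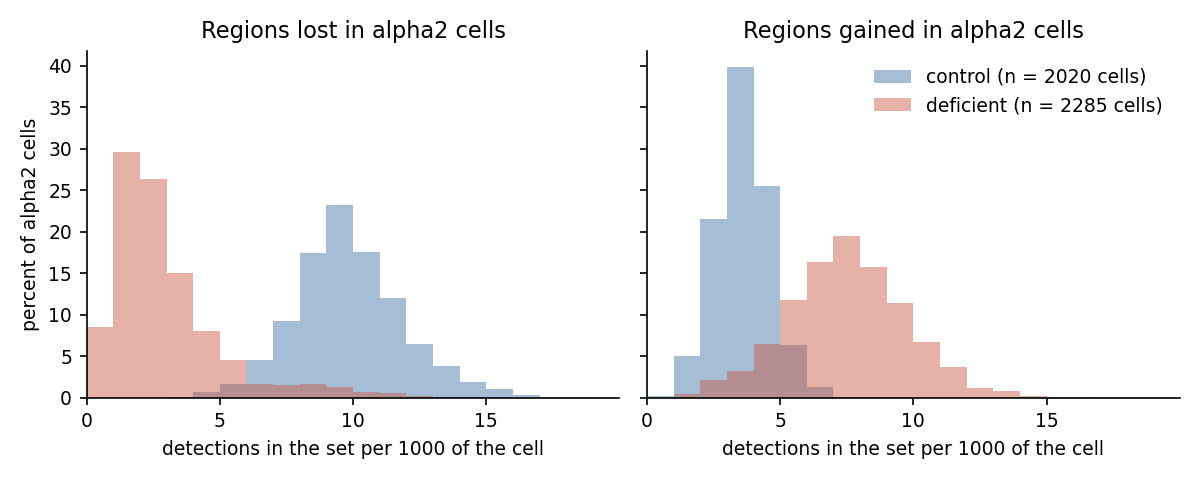
Percent of alpha2 cells by the detections per 1000 that fall in lost (left) or gained (right) regions, in odd-numbered cells with at least 2000 detections, control in blue and deficient in red. Control cells centre on 9.69 and deficient cells on 2.40 for lost regions, and the deficient cells have a tail that reaches into the control range.

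Deficient alpha2 cells varied more than control cells in the lost and gained regions. The variance of the number of lost regions per thinned cell was 3.58 times its mean in deficient and 1.41 times in control cells, and for gained regions 1.86 and 1.18 times. The distribution of lost regions in deficient cells had a tail into the control range. At least 11 lost regions, the 5th percentile of control cells, were found in 295 of 2285 thinned deficient cells (12.9%, 11.6 to 14.4%). These cells are a range and not a class, since 175 deficient cells lay within 1 detection of the limit. The share also depended on the detections drawn and on the limit. With 5000 detections from each cell that had them, 53 of 1079 deficient cells (4.91%, 3.70 to 6.38%) were in the control range. When cells whose barcode is in both libraries were left out, the limit moved to 11.6 and the share to 10.6%. That limit leaves out the 52 deficient cells with exactly 11 lost regions, whereas 4 of the 295 cells had such a barcode. The limit itself was set anew without cells of shared barcodes, so the parts of the limit and of the barcodes were not separated.

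Deficient cells with more lost regions had fewer gained regions. In the 675 deficient cells with 1 to 2 lost detections per 1000, gained regions took a median of 8.34 per 1000. The median was 7.03 in the 344 cells with 3 to 4 lost detections per 1000, 5.25 in the 75 cells with 6 to 8, 3.93 in the 67 cells with 8 to 10, and 3.21 (10th to 90th percentile 1.81 to 4.84) in the 40 cells with 10 or more. Control cells had 3.61 (2.33 to 4.84). Cells with more lost detections thus had gained levels nearer to those of control cells. Across cells the correlation of both levels was -0.57 in the deficient and -0.13 in the control library, and -0.49 and -0.055 in cells with at least 8000 detections. Both levels share the total of the cell, and the cells of a library are not replicates.

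**Figure D4:**
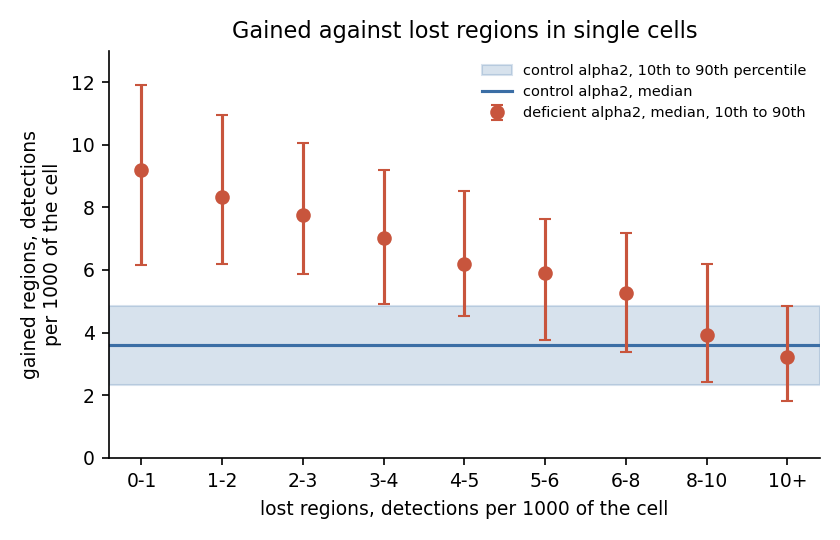
Gained regions per 1000 detections of the cell (median, with bars from the 10th to the 90th percentile of cells) in odd-numbered deficient alpha2 cells with at least 2000 detections, by their lost regions per 1000. The median passes from 9.19 in cells with under 1 lost detection per 1000 to 3.21 in cells with 10 or more, where it is within the control band (median 3.61).

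The 295 deficient cells with lost regions in the control range were compared with the 1990 below it in regions of other types. They had more regions specific to alpha1 tanycytes (a mean of 8.97 per thinned cell, against 6.47 in cells below the range and 7.40 in control alpha2 cells) and to astrocytes (12.9, against 10.01 and 11.9). These sets share 4 and 8 regions with the lost set. In control alpha2 cells lost regions also correlated with alpha1 (0.23) and astrocyte regions (0.19), so this link was not particular to deficient cells. OPC regions went the same way (11.9, against 10.1 and 11.1). Proliferating regions, chosen in the deficient library and higher in every deficient type than in its control, went the other way (6.75, against 8.05 below the range). Of the 295 cells 2.37% were nearest to the proliferating profile, against 36.1% below the range. Their mean of neuron regions was 1.30, against 1.55 below the range and 1.03 in control cells. Their median depth was 4415 detections, against 4908.5 below the range, and 4 of them had a barcode also found in the control library, against 33 of the cells below. The part of depth and of shared barcodes in these values was not tested.

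Alpha2 tanycytes had the smallest share of cells in the control range among the 8 types with at least 100 control cells. Proliferating tanycytes were not scored, and their deficient level of lost regions was lower still (1.79 of every 1000 detections). With 2000 detections per cell and each type set against its own control cells, lost regions were in the control range in 19.3% of deficient alpha1, 23.7% of beta2 and 24.2% of beta1 tanycytes, 39.6% of neurons, 50.7% of OPCs, 66.8% of ependymal cells and 69.3% (62.4 to 75.6%) of astrocytes. At 5000 detections alpha2 cells were again lowest (4.91%), followed by beta2 (8.78%) and alpha1 cells (11.6%), and astrocytes highest (38.6%, 29.1 to 48.8%). Lost regions were chosen in alpha2 cells, which favours this order. The control spread is also wider in types with few lost regions, such as neurons with a limit of 4, so neighbours in the order were not ranked.

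**Figure D5:**
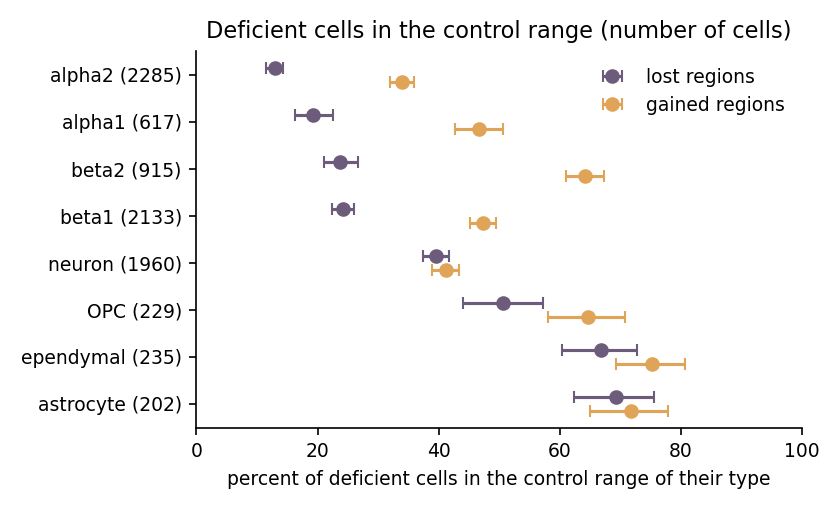
Percent of deficient cells, with 2000 detections each, whose lost (purple) or gained (orange) regions lie within the range of control cells of their own type, with exact Clopper-Pearson 95% intervals and the number of deficient cells in parentheses. Among the types shown, which leave out proliferating tanycytes, alpha2 cells are lowest for both, at 12.9% and 33.9%, and astrocytes reach 69.3% for lost regions.

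The leading alpha2 regions were at nearly the same level in both libraries. They were at 3.56 (3.53 to 3.59) of every 1000 detections in control and 3.74 (3.70 to 3.77) in deficient alpha2 cells, which differ by 0.068 (0.050 to 0.086) on the log2 scale. That difference was 0.38 for regions chosen in deficient cells, 0.00012 after median-of-ratios scaling and -0.0061 in cells matched on depth, so no direction held. Of the 500 leading regions, 22 were 2-fold or more lower and 14 higher in odd-numbered cells, against 3.78% and 1.78% of all regions tested there. The choices made in control and in deficient cells shared 44 of 500 regions, 8.80% of either set.

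Deficient alpha2 cells were then placed between control alpha2 cells (0%) and control cells of another type (100%), with the 500 regions highest and 500 lowest in alpha2 over that type. Towards neurons they lay at 12.6% (11.8 to 13.4%), and at 12.4 to 22.9% under all alternatives tried. On the side away from alpha1 tanycytes they lay at -11.1% (-12.5 to -9.78%), and between -31.6 and -8.17% under all alternatives. For beta1 (-12.4%), astrocytes (-6.98%), ependymal cells (-5.98%) and OPCs (2.89%) at least 1 alternative turned the sign. For beta2 tanycytes the interval included 0 (-0.23%, -0.99 to 0.54%), but alternatives lay between -8.06 and 7.62%, on both sides of 0. Deficient alpha1 tanycytes lay at 70.8% on their scale, and at 75.4% with regions chosen in deficient cells. Deficient neurons lay at 79.6% with the control choice but at 108% with the deficient choice, so no direction held for them.

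Single alpha2 cells also differed in the regions specific to other types, up to 500 per type that led over all other control cells. Regions of beta2 tanycytes were the most unevenly spread over control alpha2 cells thinned to 2000 detections: the median cell had 1 and the 95th percentile 7, and the variance was 3.02 times the mean (2.45 times in deficient cells). Regions of alpha1 tanycytes had a median of 7 and a 95th percentile of 15 in control cells (variance 2.16 times the mean), and of 6 and 13 in deficient cells (1.82 times). Astrocyte regions had a median of 11 and 10, with 95th percentiles of 21 and 18. The 295 regions chosen for ependymal cells were at 10.6 of every 1000 detections in control ependymal cells and 8.93 in control alpha2 cells, so they hardly mark ependymal cells and their spread is not described. Neuron regions had a median of 1 in both libraries and a mean of 1.03 in control and 1.51 in deficient cells, with 95th percentiles of 3 and 4 and a highest cell of 16 and 18. Proliferating regions, chosen in the deficient library, had a mean of 5.29 and 7.88 and 95th percentiles of 10 and 14. They did not mark control proliferating cells, which had 3.30 per 1000 detections, against 3.78 in control OPCs and 3.45 in control astrocytes. Every deficient type was above its control type in this set, so the class and the library cannot be told apart here. Among the type regions, those of beta2, alpha1 and neurons thus varied most among alpha2 cells of either library.

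The share of alpha2 cells depended on the classes counted with them. Among tanycytes other than proliferating ones, alpha2 cells were 59.5% (58.3 to 60.6%) in the control and 54.3% (53.3 to 55.4%) in the deficient library, a ratio of 0.914 (0.877 to 0.952), against 0.764 among all cells. Assigned cells gave a log2 ratio of -0.96 in place of -0.39 among all cells. That value cannot be read as a difference of genotype. The proliferating profile took 33.7% of deficient alpha2 cells, while no control cell of any type was assigned to it. The sort sets which cells could be counted.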

How the data were processed

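The matrix deposited by the authors is a pattern matrix, per the file headers: it lists region and cell numbers and holds no counts. Per the labels' protocols, reads went through Cell Ranger ATAC with default parameters. The submitters' processing notes name mm10, Cell Ranger 3.1, Signac 0.2.5, Seurat and MACS2 without roles. The sources used here do not state how regions were called, cells filtered, doublets treated and types named. The matrix has no barcodes, and its cells were matched to the annotation by their order. Under this order 79.5% of control and 67.2% of deficient cells were assigned to their own type.

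The cells were chosen by the annotation, and the sets and rules with earlier results of these data known. Detections were summed per type and library, scaled to the total, and log2 ratios taken with a pseudocount of 1 per 1000000 detections and a minimum of 50. Sets of 500 regions were chosen in even-numbered and measured in odd-numbered cells of each type and library. Leading regions needed 50 detections and a log2 ratio of 0.5, lost and gained regions 200 detections, and type regions 20 detections and a log2 ratio of 0.5 over all other control cells. Assignment used the multinomial likelihood with a pseudocount of 5 on the same scale. Named regions are the 2 highest and 2 lowest with at least 200 detections, and the 2 most open. Alternatives used other scalings, pseudocounts and minimums, thinned cells to 2000 detections or matched depth in 20 bins. The functions were tested on simulated data. Python 3.11.15, numpy 2.4.6, scipy 1.17.1 and pandas 2.3.3 were used.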

Additional observations from a re-analysis of the deposited data

How the results depend on the processing

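No paired analysis was possible because each genotype had 1 library. Alternatives chosen after seeing the data are the assignment without the proliferating profile, leading regions over all other types, the same regions measured in thinned cells, and all those of the control range. Of 106 alternatives over 16 results, 31 stayed within counting error or, for counts, within 1.5 times, 62 moved further, and 13 turned the sign. Among the 62 are 3 positions towards beta2 that were above 0, where the main value of -0.23% had an interval that included 0. The cause was not tested except where stated. Counting error is small here, so a move can be slight. Depth limits single regions: fewer regions are open to the choice of lost and gained sets in thinned cells (12201 in place of 35472) or with a minimum 4 times higher (8635), which leaves out regions of low accessibility.

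With a pseudocount of 5 per 1000000 detections 535 regions were lower and 47 higher by 2-fold in place of 3134 and 1212. With a pseudocount of 0.5 2356 were higher, and with a minimum 4 times higher 663.

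The log2 ratio of the alpha2 share was -0.27 among tanycytes and -0.13 without proliferating tanycytes. It was -0.96 with reassigned cells, where the proliferating profile took cells in the deficient library only. Profiles of both libraries assigned 72.0% of control and 24.3% of deficient alpha2 cells to alpha2. Without the proliferating profile 79.9% of deficient cells were.

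The lost set had a log2 ratio of -1.70. It was -1.77 with median-of-ratios and with trimmed-mean scaling, -1.65 with the parities exchanged, -0.54 with a minimum 4 times higher, -1.63 with a pseudocount of 5, -0.85 when chosen in thinned cells, -1.65 without the deepest 5% of cells, -1.56 in matched depth, -1.44 in cells nearest to alpha2 and -1.72 for the same regions in thinned cells. The gained set (1.04) had 0.97 with either scaling, 0.25 with a minimum 4 times higher, 0.99 with a pseudocount of 5, 0.30 when chosen in thinned cells, 0.96 without the deepest 5%, 0.88 in matched depth, 0.63 in cells nearest to alpha2 and 1.06 for the same regions in thinned cells.

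The leading set (0.068) had 0.00012 with median-of-ratios and 0.0051 with trimmed-mean scaling, 0.10 with the parities exchanged, 0.046 without the deepest 5%, 0.034 for the same regions in thinned cells and 0.38 when chosen in the deficient library. It turned to -0.081 with a minimum 4 times higher, -0.0043 with a pseudocount of 5, -0.16 when chosen in thinned cells, -0.0061 in matched depth, -0.057 in cells nearest to alpha2 and -0.083 over all 7 other types.

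Positions with the parities exchanged were -3.73% (astrocytes), -14.7% (beta1), -5.85% (beta2), -2.42% (ependymal) and 5.63% (OPC). With a minimum 4 times higher they were -23.4% (alpha1), 2.03% (astrocytes), -4.77% (beta1), 4.26% (beta2), 17.1% (ependymal) and 22.1% (neurons). With regions chosen in the deficient library they were -31.6% (alpha1), -66.8% (astrocytes), -42.2% (beta1), -8.06% (beta2), -59.3% (ependymal), 22.9% (neurons) and -10.03% (OPC). In thinned cells they were 1.87% (astrocytes), 3.05% (beta1), 7.62% (beta2), 19.0% (ependymal), 19.6% (neurons) and 5.02% (OPC). In matched depth they were -8.17% (alpha1), -3.56% (astrocytes), 0.37% (beta1), 7.02% (beta2), -2.94% (ependymal) and 18.2% (neurons).

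The share of deficient cells in the control range of lost regions was 12.9% with a limit of 11. It was 4.91% at 5000 detections per cell and 9.36% in cells nearest to alpha2, where the limit was 12. It was 10.6% without barcodes found in both libraries (limit 11.6) and 20.1% with the range taken from the 1st percentile (limit 9). The limit moved in each of these, so the part of the cells kept was not separated from it.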

Other observations

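Deep control alpha2 cells had slightly more gained regions than shallow ones. Gained regions took a median of 3.34 of every 1000 detections in control alpha2 cells with 1000 to 2000 detections, 3.65 in those with 8000 to 15000 and 3.96 in the 165 odd-numbered cells above 15000, a depth that no deficient cell reached. In deficient alpha2 cells the medians stayed between 7.47 and 7.59.

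Control alpha2 cells assigned to beta1 tanycytes were deeper, with a median of 6917 detections, than those assigned to alpha2 (4905.5). In the deficient library the order was the opposite, with 4379 and 4922.

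Region numbers next to each other shared their class more often than all regions did. The next number was also a lost region for 7 of 161 lost regions whose next number was open to the choice (4.35%), against 1.48% of all such regions, and also a gained region for 5 of 160 gained regions (3.12%, against 1.17%). The sources used here do not state how the numbers are ordered.

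Per 1000 detections, control alpha2 cells had 2.32 in regions specific to beta1 tanycytes and deficient ones 1.94 (log2 ratio -0.26, -0.28 to -0.24).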
